A study of Homo sapiens with 12 samples.

Results

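The BCL2 family sets whether a cell under stress opens its mitochondria and dies, and 10 of its genes were followed here across the deposited poly(A) RNA-seq table of 28576 genes. They were chosen by name, and all 10 were found once each: MCL1, BCL2L1 and BCL2, which hold death back, BCL2L11, BBC3, PMAIP1, BMF and BID, which start it, and BAX and BAK1, which carry it out. The study was made in SHEP, a human neuroblastoma line of the mesenchymal type. All cells carried MYCN-ER, a MYCN fused to a hormone-binding domain that 4-hydroxytamoxifen (OHT) switches on, and an integrated short hairpin RNA against TCEAL1 that doxycycline (Dox) induces. There were 12 libraries in 4 groups of 3: Ctrl had neither compound, OHT had 200 nM OHT, Dox had 1 µg/ml Dox, and OHT_Dox had both. Cells without MYCN-ER given OHT, or with another hairpin given Dox, were not analysed here, so each compound and what it switches on cannot be told apart. The labels give no treatment times, and do not say whether the line was 1 clone or whether replicates were separate cultures, so a p-value here reflects only how these libraries scatter, which may be technical.

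MCL1, BCL-XL (encoded by BCL2L1) and BCL2 sit on the outer mitochondrial membrane and bind BAX, BAK1 and the BH3-only proteins through a groove. The BH3-only proteins BIM (BCL2L11), PUMA (BBC3), NOXA (PMAIP1), BMF and BID fill that groove or push BAX and BAK1 into the pores that release cytochrome c, and a cell whose blockers are nearly full is said to be primed. Proteins of the MYC family are known both to drive growth and to lower the barrier to this death. Priming belongs to proteins and was not measured here. At the level of RNA neither class moved 1 way: with OHT 2 of the 3 blockers fell and 1 rose, and among the BH3-only genes PMAIP1 and BBC3 fell while BCL2L11 rose. The genes are therefore called the BCL2 family below, without a claim on priming.

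The libraries held between 44466458 and 57694970 reads. TCEAL1, the target of the hairpin, fell from 9.84 ± 0.80 to 2.63 ± 0.10 CPM (reads scaled to the library's total; SD, n = 3) with Dox, and with OHT present from 8.99 ± 0.76 to 2.27 ± 0.47 CPM. MYCN stood at 376 to 644 CPM in all 12 libraries, a level that says nothing of whether OHT had activated the fusion protein. It did not pass for OHT against Ctrl (0.11 ± 0.10) but was lower in OHT_Dox than in Dox (-0.34 ± 0.10 on the log2 scale, limma, adjusted p = 0.0191), and the difference between these responses did not pass (-0.45 ± 0.15, adjusted p = 0.221). Its part in the results below was not tested. The 7 mesenchymal markers were all at 1 CPM or more, led by VIM at 2223 to 3083 CPM, whereas 3 of the 7 adrenergic markers measured were: HAND2 at 47.6 to 64.1, ISL1 at 8.74 to 12.4 and GATA3 at 7.30 to 10.1 CPM. The others, PHOX2A and DBH among them, stayed below 1 CPM in every library. The summed adrenergic markers moved with OHT, from between 67.7 and 72.0 to between 74.7 and 84.0 CPM. Under the hairpin they went from between 67.7 and 73.9 to between 80.0 and 84.6 CPM. Most of this was HAND2, whose mean went from 50.5 to 59.8 CPM, and from 49.2 to 63.1 CPM under the hairpin. The mean of GATA3 was lower with OHT in both settings. That of ISL1 was higher with OHT alone and lower with OHT under the hairpin. The summed epithelial markers, mostly KRT18 and KRT8, were at 1321 to 1448 CPM in Ctrl, 1191 to 1249 in OHT, 920 to 941 in Dox and 831 to 954 in OHT_Dox. Both groups with Dox lay below both groups without it, and Dox and OHT_Dox overlapped. Of the 4 epithelial markers only these 2 keratins had a mean of 1 CPM or more. EPCAM was at 0.320 to 1.25 CPM and CDH1 at 0.0388 to 0.922 CPM. The mesenchymal sum also moved with Dox, from between 3815 and 4092 to between 3182 and 3366 CPM. Most of that was VIM, at a mean of 2903 CPM in Ctrl and 2359 CPM in Dox. FN1 and SNAI2 also had lower means in Dox, whereas PRRX1, YAP1, NOTCH2 and WWTR1 had higher ones. Across OHT the mesenchymal sums overlapped, at 3712 to 3953 CPM in OHT and 3191 to 3390 CPM in OHT_Dox. The mean of PRRX1 went from 66.5 to 107 CPM with OHT, and from 71.6 to 93.4 CPM under the hairpin. That of NOTCH2 went from 133 to 182 CPM and from 164 to 185 CPM. Means of FN1, SNAI2, YAP1 and WWTR1 were lower with OHT in both settings, and that of VIM only without the hairpin. The part of these markers in the results below was not tested. The 3 haematopoietic markers measured, without CD3E, summed to at most 0.560 CPM in any library. Of the 2 endothelial markers PECAM1 had no values, and CDH5 reached at most 0.120 CPM. The Spearman correlation of a library's deviations with the GC content of genes, across genes, ran from -0.343 in Dox replicate 1 to 0.458 in OHT_Dox replicate 3, and the other Dox libraries were at -0.286 and -0.0895. Without the libraries at both ends, the counts of members called below were unchanged in each comparison. With the trend on length and GC content removed, they were 6 for OHT against Ctrl, 6 for OHT_Dox against Dox (5 before) and 0 in the others.

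Taking the blockers first, MCL1 and BCL2L1 fell and BCL2 rose when OHT was given. MCL1 is the short-lived blocker that holds BAK1, BIM and NOXA. Its level was 266, 268 and 244 CPM in the Ctrl libraries and 209, 199 and 200 CPM in the OHT libraries. The lowest Ctrl library was above the highest OHT library, and the group means were 259 ± 13.3 and 202 ± 5.75 CPM (SD, n = 3). MCL1 fell by 0.36 ± 0.05 on the log2 scale (SE, here as below on log2(CPM + 0.5)), with an adjusted p of 7.79e-05 from limma with Benjamini-Hochberg adjustment over 18674 genes. In cells with the hairpin induced, MCL1 read 282, 293 and 280 CPM without OHT and 209, 213 and 193 CPM with it. It fell by 0.47 ± 0.05 there (adjusted p = 2.76e-06). In bulk RNA, a lower value from fewer cells with the transcript and one from less transcript per cell cannot be told apart, and CPM are shares of each library's total.

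BCL2L1, whose main product BCL-XL is the long-lived blocker of BAX, fell as well. The Ctrl libraries had 84.4, 83.7 and 85.3 CPM and the OHT libraries 68.4, 72.0 and 67.2 CPM, with no overlap. The change was -0.29 ± 0.06 (adjusted p = 0.00151). The level went from 90.6, 83.4 and 85.8 CPM to 69.1, 67.7 and 76.7 CPM with the hairpin induced, again without overlap, a change of -0.28 ± 0.06 (adjusted p = 0.00144). The gene level does not separate BCL-XL from the shorter splice form BCL-XS, which promotes death.

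BCL2, the founding member of the family, went the other way. It was at 16.7, 14.9 and 13.6 CPM in Ctrl and at 23.3, 19.5 and 21.0 CPM in OHT. All 3 OHT libraries lay above all 3 Ctrl libraries, and BCL2 rose by 0.48 ± 0.10 (adjusted p = 0.00160). In cells with the hairpin induced, it read 16.1, 16.6 and 17.2 CPM without OHT and 23.0, 23.0 and 18.1 CPM with it. The groups did not overlap there either, but 1 OHT_Dox library stood close to the Dox libraries. BCL2 rose by 0.34 ± 0.10 (adjusted p = 0.0159), and this call was lost when Dox replicate 1 (adjusted p = 0.0518), OHT_Dox replicate 1 (adjusted p = 0.0859) or OHT_Dox replicate 2 (adjusted p = 0.0708) was left out.

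**Figure D1:**
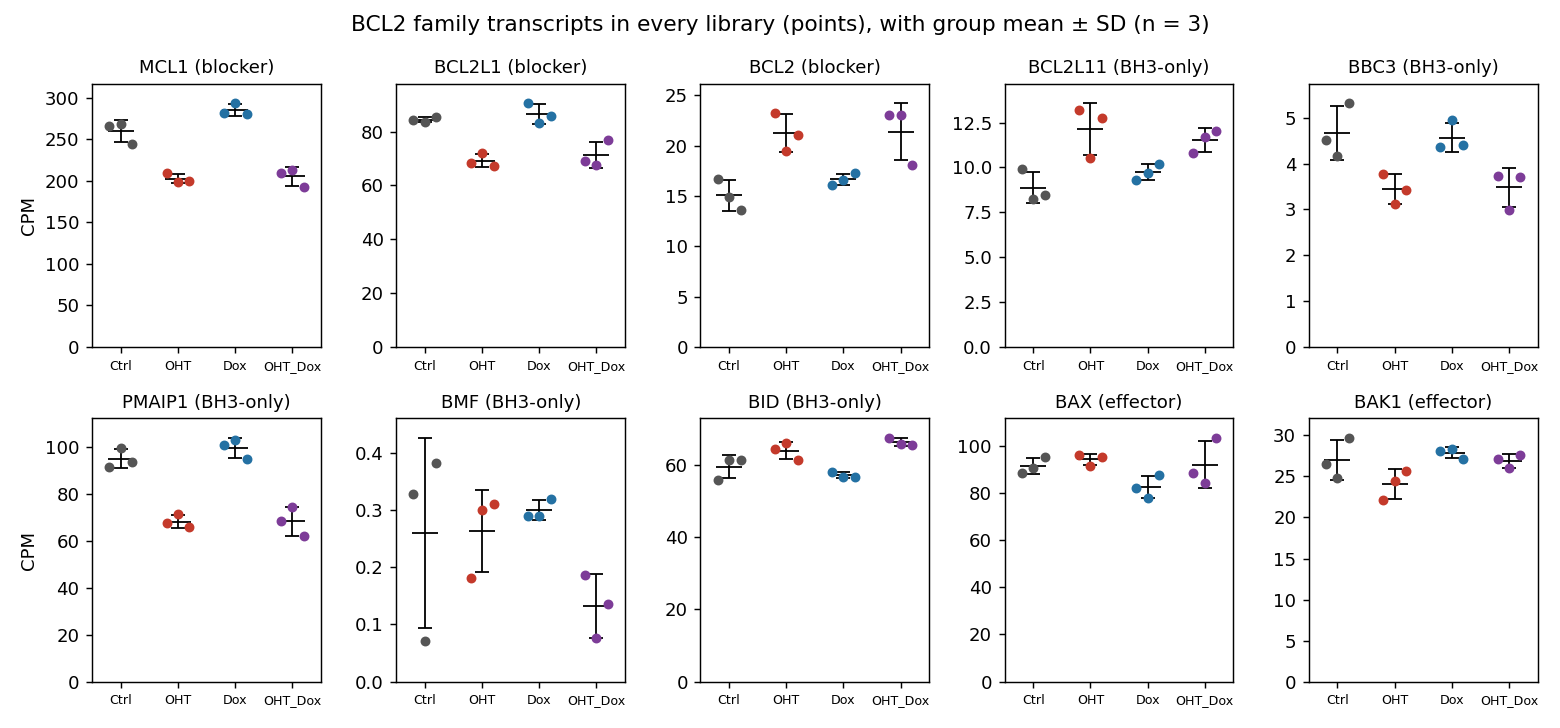
CPM of the 10 BCL2 family genes in every library (points), by group, with the group mean and SD (n = 3) and every axis starting at 0. MCL1, BCL2L1 and PMAIP1 are lower and BCL2 is higher in both groups with OHT, while BMF stays under 0.4 CPM.

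Among the BH3-only genes, PMAIP1 and BBC3 fell and BCL2L11 rose with OHT alone. PMAIP1 had the most negative estimate of the 9 tested members in both settings. Its product NOXA binds chiefly MCL1 and hastens the breakdown of MCL1 protein. PMAIP1 had 91.5, 99.4 and 93.5 CPM in Ctrl and 67.4, 71.1 and 65.7 CPM in OHT. It fell by 0.47 ± 0.07 (adjusted p = 2.58e-05). Under the hairpin it went from 101, 103 and 94.6 CPM to 68.2, 74.3 and 62.1 CPM, a fall of 0.54 ± 0.07 (adjusted p = 5.23e-06). The groups with and without OHT were apart in both settings.

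BBC3, whose product PUMA binds all blockers and is a classical target of p53, was at a low level. It had 4.51, 4.17 and 5.32 CPM in Ctrl and 3.77, 3.11 and 3.43 CPM in OHT. The libraries did not overlap, and BBC3 fell by 0.39 ± 0.13 (adjusted p = 0.0384). That call was lost in 6 of 23 alternatives, among them leaving out Ctrl replicate 1 or 3 or OHT replicate 2 or 3, with an adjusted p of up to 0.171. Where the hairpin was induced, BBC3 read 4.37, 4.94 and 4.40 CPM without OHT and 3.74, 2.99 and 3.71 CPM with it. The difference of -0.35 ± 0.13 did not pass (adjusted p = 0.0511), although the groups did not overlap, and it passed in 5 of 23 alternatives.

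BCL2L11 encodes BIM, which binds every blocker and activates BAX directly. It had 9.89, 8.26 and 8.49 CPM in Ctrl and 13.2, 10.5 and 12.7 CPM in OHT, and it rose by 0.43 ± 0.10 (adjusted p = 0.00541). Under the hairpin it had 9.30, 9.69 and 10.2 CPM without OHT and 10.8, 11.7 and 12.1 CPM with it. Those groups did not overlap, but the difference of 0.23 ± 0.10 did not pass with limma (adjusted p = 0.109). It passed with edgeR (adjusted p = 0.0459) and DESeq2 (adjusted p = 0.0410) on the recovered reads. The long noncoding RNA gene MIR4435-2HG overlaps exons of BCL2L11 on the opposite strand at a mean of 83.7 CPM, and although the library kit keeps strand, the strand setting of the counting is not given in the sources used here, so the BCL2L11 values are uncertain. MIR4435-2HG itself was at 84.6 ± 3.21 CPM in Ctrl and 87.3 ± 4.18 CPM in OHT (SD, n = 3), a difference that did not pass, and it did not pass with the hairpin induced either.

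BID links death receptors to mitochondria after cleavage by caspase 8. It had 55.8, 61.3 and 61.5 CPM in Ctrl and 64.5, 66.0 and 61.5 CPM in OHT. The lowest OHT library lay barely above the highest Ctrl library, and the difference of 0.10 ± 0.06 did not pass (adjusted p = 0.213). Under the hairpin it went from 58.1, 56.8 and 56.6 CPM to 67.5, 65.8 and 65.7 CPM. BID rose by 0.21 ± 0.06 there (adjusted p = 0.00908). BMF, a BH3-only gene tied to the cytoskeleton, was barely detected: its 12 libraries held 4 to 22 reads each, or 0.0709 to 0.381 CPM. It did not pass the filter of 0.5 CPM in 3 libraries and was not tested. Its OHT_Dox libraries held 10, 4 and 6 reads and its Dox libraries 16 each.

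Neither pore former passed in a comparison of OHT. BAX had 88.5, 90.6 and 95.2 CPM in Ctrl and 96.1, 91.6 and 95.1 CPM in OHT, groups that overlapped, with a difference of 0.04 ± 0.07 (adjusted p = 0.702; 95% interval -0.10 to 0.19). Under the hairpin it read 82.0, 77.9 and 87.5 CPM without OHT and 88.3, 84.3 and 103 CPM with it. The difference of 0.15 ± 0.07 did not pass (adjusted p = 0.114), but did with the replicate number as a block (adjusted p = 0.0451) and without OHT_Dox replicate 2 (adjusted p = 0.0368). BAK1 had 26.5, 24.8 and 29.7 CPM in Ctrl and 22.1, 24.4 and 25.7 CPM in OHT, which overlapped (-0.16 ± 0.08, adjusted p = 0.150). In cells with the hairpin induced, BAK1 read 28.1, 28.4 and 27.2 CPM without OHT and 27.1, 26.0 and 27.6 CPM with it, a difference of -0.05 ± 0.08 (adjusted p = 0.686).

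In all, OHT raised 2 and lowered 4 of the 9 members tested in cells without Dox, where 12.6% of all genes tested were called higher and 8.79% lower. In cells with the hairpin induced it raised 2 and lowered 3, against 11.5% and 14.5% of all genes. Those shares were 2153 and 2709 genes, but 2553 and 2220 after TMM rescaling, so which was larger turned with the scaling. The median change over the 9 members was -0.16 and -0.05, beside -0.01 and -0.03 over all genes tested. The 9 that passed the filter leave out BMF, and the members were chosen with earlier results known, so these counts describe the family and test nothing about it.

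**Figure D2:**
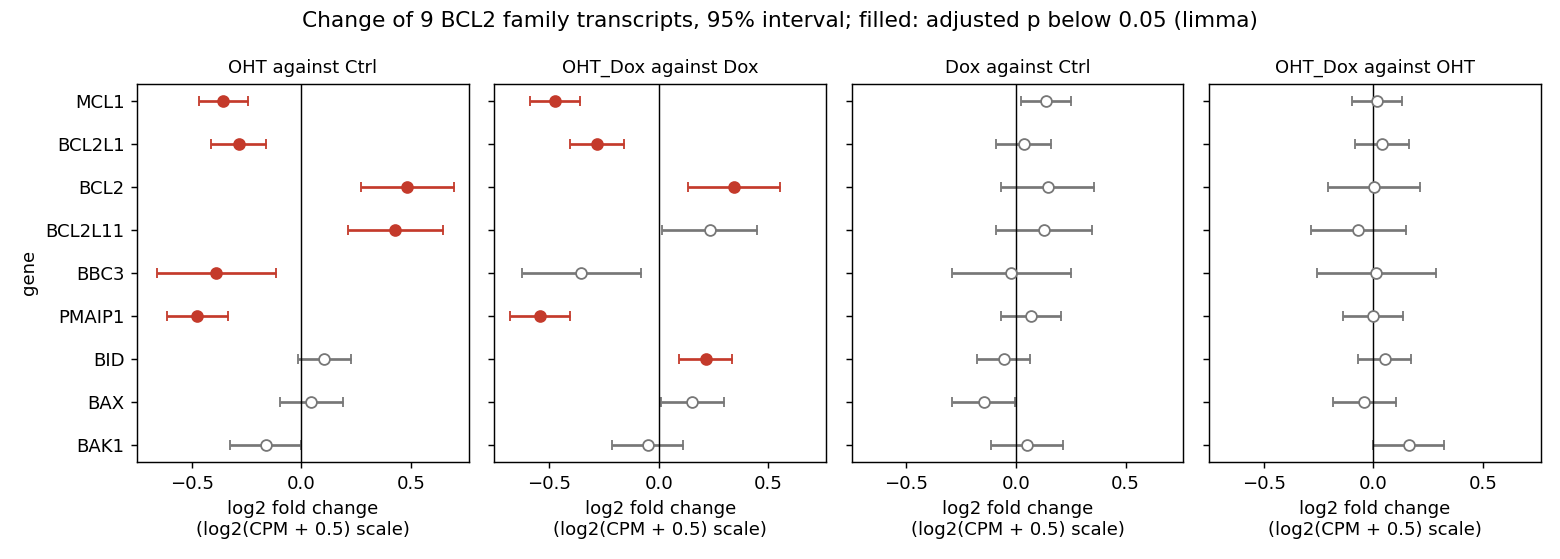
Log2 fold change of the 9 tested members (points) with 95% intervals in 4 comparisons, filled red where limma's adjusted p was below 0.05. Filled points appear in the comparisons of OHT, 6 without and 5 with the hairpin induced, and 0 appear in the comparisons of Dox.

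Dox alone moved none of the 9 members past the threshold. For Dox against Ctrl 0 were called with limma, edgeR or DESeq2, where limma called 5.68% of all genes higher and 2.61% lower (1061 and 487 genes, but 519 and 771 after TMM rescaling). At an unadjusted p under 0.05 there were 2. MCL1 was higher in all 3 Dox libraries than in all 3 Ctrl libraries, by 0.14 ± 0.05 (adjusted p = 0.114; 95% interval 0.02 to 0.25). BAX was lower in all 3 Dox libraries, by -0.15 ± 0.07 (adjusted p = 0.173; 95% interval -0.29 to -0.0048). The interval of BBC3 ran from -0.29 to 0.25, that of BCL2L11 from -0.09 to 0.34 and that of BCL2 from -0.07 to 0.35.

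In cells given OHT, adding Dox again left all 9 members short of the threshold. OHT_Dox against OHT gave 0 calls with limma, edgeR or DESeq2 and 0 at an unadjusted p under 0.05, where limma called 0.509% of all genes higher and 1.59% lower. MCL1 differed by 0.02 (95% interval -0.09 to 0.13), BCL2L1 by 0.04 (-0.09 to 0.16) and PMAIP1 by -0.00099 (-0.14 to 0.14). The intervals of genes at lower levels were wider: -0.26 to 0.28 for BBC3, -0.28 to 0.15 for BCL2L11 and -0.21 to 0.21 for BCL2. BAK1, at 0.16 ± 0.08 (-0.0017 to 0.32), lay farthest from 0, and its OHT_Dox libraries were all above its OHT libraries (adjusted p = 0.386).

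Whether the response to OHT depended on the hairpin was tested as an interaction. None of the 9 members passed and 0% of all genes did with limma; 2879 genes and 0 members had an unadjusted p under 0.05, edgeR called 0 genes and DESeq2 called 1 gene, no member. Leaving out Ctrl replicate 1 gave 1041 genes and 0 members. The estimates were -0.12 ± 0.08 for MCL1 (95% interval -0.28 to 0.04), -0.07 ± 0.09 for PMAIP1 (-0.26 to 0.12), -0.14 ± 0.14 for BCL2 (-0.44 to 0.16) and -0.20 ± 0.15 for BCL2L11 (-0.50 to 0.11). A call of BCL2L11 and BBC3 without Dox and of BID with Dox therefore does not show that the response differed. The comparisons of OHT with and without the hairpin use separate libraries, and those of OHT and of Dox against Ctrl share the Ctrl libraries.

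The ratio of 1 member to another within a library does not depend on how that library was scaled, beyond the 0.5 CPM added on the log scale. A library's trend on GC content need not cancel in a ratio, and it was not removed from the ratios given here. The ratio of MCL1 to PMAIP1, a blocker and the BH3-only protein that binds it, was 2.74 ± 0.15 in Ctrl and 2.98 ± 0.16 in OHT, and 2.87 ± 0.08 in Dox and 3.02 ± 0.13 in OHT_Dox (SD, n = 3; CPM over CPM). Both genes fell, and the ratios of the groups with and without OHT overlapped. The ratio of BCL2 to BCL2L11, which both rose, was 1.70 ± 0.10 in Ctrl and 1.76 ± 0.10 in OHT, and 1.71 ± 0.02 in Dox and 1.86 ± 0.33 in OHT_Dox, again with overlap.

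The ratios of MCL1 to BCL2L11, MCL1 to BCL2 and BCL2L1 to BAX did not overlap between groups with and without OHT. MCL1 to BCL2L11 was 26.9, 32.4 and 28.7 in the Ctrl libraries and 15.9, 18.9 and 15.6 in the OHT libraries. Under the hairpin it was 30.3, 30.3 and 27.5 without OHT and 19.4, 18.2 and 16.0 with it. The means were 29.4 and 16.8 without and 29.3 and 17.9 with the hairpin. MCL1 to BCL2 went from 17.3 ± 1.16 to 9.56 ± 0.61, and from 17.1 ± 0.77 to 9.68 ± 0.85 with the hairpin. BCL2L1 to BAX went from 0.925 ± 0.029 to 0.735 ± 0.045, and from 1.05 ± 0.06 to 0.776 ± 0.031 with the hairpin. Its Dox libraries, at 1.10, 1.07 and 0.980, also lay above its Ctrl libraries, at 0.954, 0.924 and 0.897. These pairs were formed after the genes' changes were known, so the ratios are a description without a test.

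**Figure D3:**
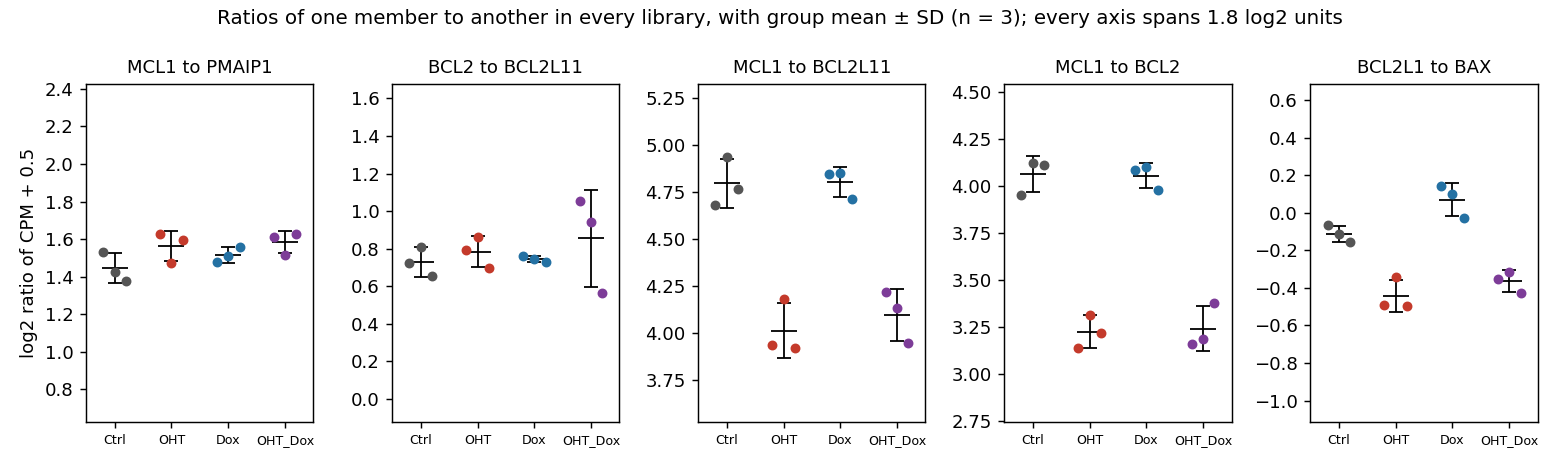
Log2 ratio of 1 member to another in every library (points; CPM + 0.5), with group mean and SD (n = 3); the 5 panels have axes of equal span. MCL1 to PMAIP1 and BCL2 to BCL2L11 stay near their Ctrl level, whereas MCL1 to BCL2L11, MCL1 to BCL2 and BCL2L1 to BAX are lower in both groups with OHT.

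Levels can be compared between genes only per length of transcript. Per kilobase of exon, the order in Ctrl was MCL1 at 59.3 ± 3.03, PMAIP1 at 42.4 ± 1.82, BAX at 35.3 ± 1.32 and BCL2L1 at 25.5 ± 0.25 CPM per kb (SD, n = 3). BID at 13.4 ± 0.73 and BAK1 at 12.2 ± 1.12 CPM per kb overlapped. BBC3 at 1.47 ± 0.19, BCL2L11 at 1.33 ± 0.13 and BCL2 at 1.28 ± 0.13 CPM per kb did not differ beyond their spread, and BMF came last at 0.0477 CPM per kb. In OHT, BAX (36.4 ± 0.92 CPM per kb) stood above PMAIP1 (30.5 ± 1.24 CPM per kb), which reverses their order in Ctrl. The order rests on which transcripts are made: with the median length of a gene's annotated transcripts, BAX was first in Ctrl, then MCL1, BCL2L1 and PMAIP1.

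Per kilobase of exon, the shares of the 3 blockers in their sum were as follows. MCL1 made up 68.9 ± 1.24% of their summed CPM per kb in Ctrl and 67.1 ± 0.98% in OHT. BCL2L1 made up 29.6 ± 1.29% and 30.3 ± 1.18%. BCL2 went from 1.49 ± 0.11% to 2.62 ± 0.20%, and with the hairpin induced from 1.53 ± 0.07% to 2.58 ± 0.30% (SD, n = 3). These shares rest on the length used. With the median length of annotated transcripts, MCL1 made up 53.2 ± 1.45% in Ctrl and 51.4 ± 1.15% in OHT. BCL2L1 then made up 45.0 ± 1.54% and 45.5 ± 1.41%, and BCL2 1.78 ± 0.15% and 3.11 ± 0.26%. The blocker that rose was thus a small part of the sum of these 3 members in every group. No other gene of the family is in that sum.

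The promoters of the family were read for the E-box CACGTG, the DNA word that MYC proteins bind with their partner MAX. Sequences came from RefSeq (GRCh38.p14), windows of 300 bases from 250 before to 50 after each start, and 9 of the 10 members had at least 1; MCL1 had no entry. The word, which reads the same on both strands, occurred in 7.26% of 35116 windows. Among the 9 members it occurred in BAX, BBC3 and BID. Members are counted as genes here and below, and some have more than 1 window. Their counts are therefore not comparable with the shares of windows. BAX stood out with 4 copies, as only 5 windows (0.0142%) had 4 or more. They are shown for that reason, and their part in any response to OHT was not tested. The copies lie 138, 93, 45 and 14 bases before the start on chromosome 19 (plus strand, each stretch 30 bases, the word in capitals), from chr19:48954725-48954754, chr19:48954770-48954799, chr19:48954818-48954847 and chr19:48954849-48954878 in this order.
BAX 138: tcattggacagtCACGTGacgggaccaaac
BAX 93: ggcaggtgcggtCACGTGacccggcggcgc
BAX 45: ttgcggggcggcCACGTGaaggacgcacgt
BAX 14: cagcggggctctCACGTGacccgggcgcgc
BBC3 had 1 copy 232 bases before its start (chr19:47232882-47232911, minus strand), and BID had 1 copy 106 bases before a start (chr22:17774072-17774101, minus strand), present in 2 of its 5 windows.
BBC3 232: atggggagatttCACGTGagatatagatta
BID 106: ttgtgtcctctcCACGTGgcctggggattc
The related word CACGCG, searched on both strands, occurred in 11.4% of all windows and in 1 member, BCL2L11, 146 bases before the start (chr2:111120756-111120785, plus strand).
BCL2L11 146: tgtccgagcctgCACGCGccggcggccgcg
The windows of BCL2, BCL2L1, PMAIP1, BAK1 and BMF held neither word. A match is only a match of letters, and its absence covers this window alone.

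The gene lists that follow are counted beside all genes tested: 12.6% were called higher and 8.79% lower with OHT alone, and 11.5% and 14.5% under the hairpin, with medians of -0.01 and -0.03. Under the hairpin, whether more genes were called higher or lower turned with the scaling, as given above. These lists are small, the counts move when 1 library is left out, and nothing particular to a list is read from them.

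Other genes of the family, which were chosen with earlier results of these data known, included the largest estimate among the family genes tested, in both settings. HRK encodes harakiri, a BH3-only protein that binds mainly BCL-XL. It had 5.42, 5.51 and 4.89 CPM in Ctrl and 13.2, 11.4 and 12.9 CPM in OHT. Under the hairpin it had 6.47, 6.86 and 6.20 CPM without OHT and 16.8, 16.9 and 13.1 CPM with it. HRK rose by 1.17 ± 0.11 (adjusted p = 2.11e-07) and by 1.19 ± 0.11 (adjusted p = 1.85e-07), and it kept these calls under every alternative run. Of the 10 tested relatives, 2 rose and 2 fell with OHT alone, and 2 rose and 1 fell with the hairpin induced. BAD, a BH3-only gene held in check by growth factor signalling, fell by 0.31 ± 0.07 and BCL2L14 rose by 0.29 ± 0.10 in the first setting. BNIP3L, a receptor for the removal of mitochondria, fell by 0.33 ± 0.06 and BOK, a BAX-like gene at about 1 CPM, rose by 0.61 ± 0.17 in the second. BCL2L14 and BOK lost their call under 5 and 2 alternatives, and 1 relative was called higher and 1 lower with OHT alone without Ctrl replicate 2, Ctrl replicate 3, OHT replicate 1 or OHT replicate 3. With OHT alone 1 was lower without Dox replicate 2, Dox replicate 3 or OHT_Dox replicate 1, and under the hairpin the counts were 2 and 2 without Dox replicate 1 and 1 and 1 without OHT_Dox replicate 1. BCL2A1, BCL2L10 and BCL2L15 were not tested, and the list's medians were -0.05 and 0.03.

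Downstream of the mitochondria, APAF1 was called lower in both settings. Of 14 apoptosome, caspase and mitochondrial effector genes, 1 rose and 6 fell with OHT alone and 2 rose and 5 fell with the hairpin induced (medians -0.12 and -0.06). The 6 came down to 2 without OHT replicate 1 and to 3 without Ctrl replicate 2, OHT replicate 2 or OHT replicate 3, and without both Dox replicate 1 and OHT_Dox replicate 3 the second pair of counts was 0 and 3. APAF1, the scaffold that cytochrome c turns into the caspase 9 platform, had 21.0, 17.3 and 18.3 CPM in Ctrl and 13.0, 10.6 and 10.5 CPM in OHT. It fell by 0.71 ± 0.10 (adjusted p = 2.42e-05) and by 0.84 ± 0.10 with the hairpin induced (adjusted p = 3.19e-06). CASP2, an initiator caspase, fell by 0.32 ± 0.08 and 0.36 ± 0.08, the first lost in 1 of 23 alternatives. VDAC1, a channel of the outer mitochondrial membrane, rose by 0.24 ± 0.06 with OHT alone. Under the hairpin it read 290, 292 and 297 CPM without OHT and 334, 349 and 357 CPM with it.

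The inhibitors of apoptosis block caspases or steer the signals that start them. Of 6 tested, 3 fell and 0 rose with OHT alone, and 2 fell and 0 rose with the hairpin induced (medians -0.13 and -0.26). The 3 became 1 without Ctrl replicate 2, OHT replicate 2 or OHT replicate 3, 1 rose and 2 fell without Ctrl replicate 1, and the 2 became 1 without both Dox replicate 1 and OHT_Dox replicate 3. BIRC2, which also steers signals from TNF receptors, fell by 0.34 ± 0.08 and 0.45 ± 0.08. XIAP, which inhibits caspases directly, fell by 0.22 ± 0.07 and 0.33 ± 0.07, calls that were lost in 9 and 1 of 23 alternatives. BIRC3 fell by 0.33 ± 0.10 with OHT alone, lost in 3. Among 10 tested genes of the death receptor pathway, 1 rose and 4 fell with OHT alone, and 0 rose and 2 fell with the hairpin induced (medians -0.13 and -0.17). The 4 became 2 without any 1 Ctrl library or without OHT replicate 3, and the 2 under the hairpin became 4 without OHT_Dox replicate 2. TNFRSF10B, a receptor for TRAIL, rose by 0.24 ± 0.05, whereas CFLAR, which keeps caspase 8 inactive, fell by 0.29 ± 0.07 and 0.28 ± 0.07. CASP10 fell by 0.57 ± 0.17, lost in 3 alternatives, and TNFRSF1A fell by 0.28 ± 0.07 with the hairpin induced.

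**Figure D4:**
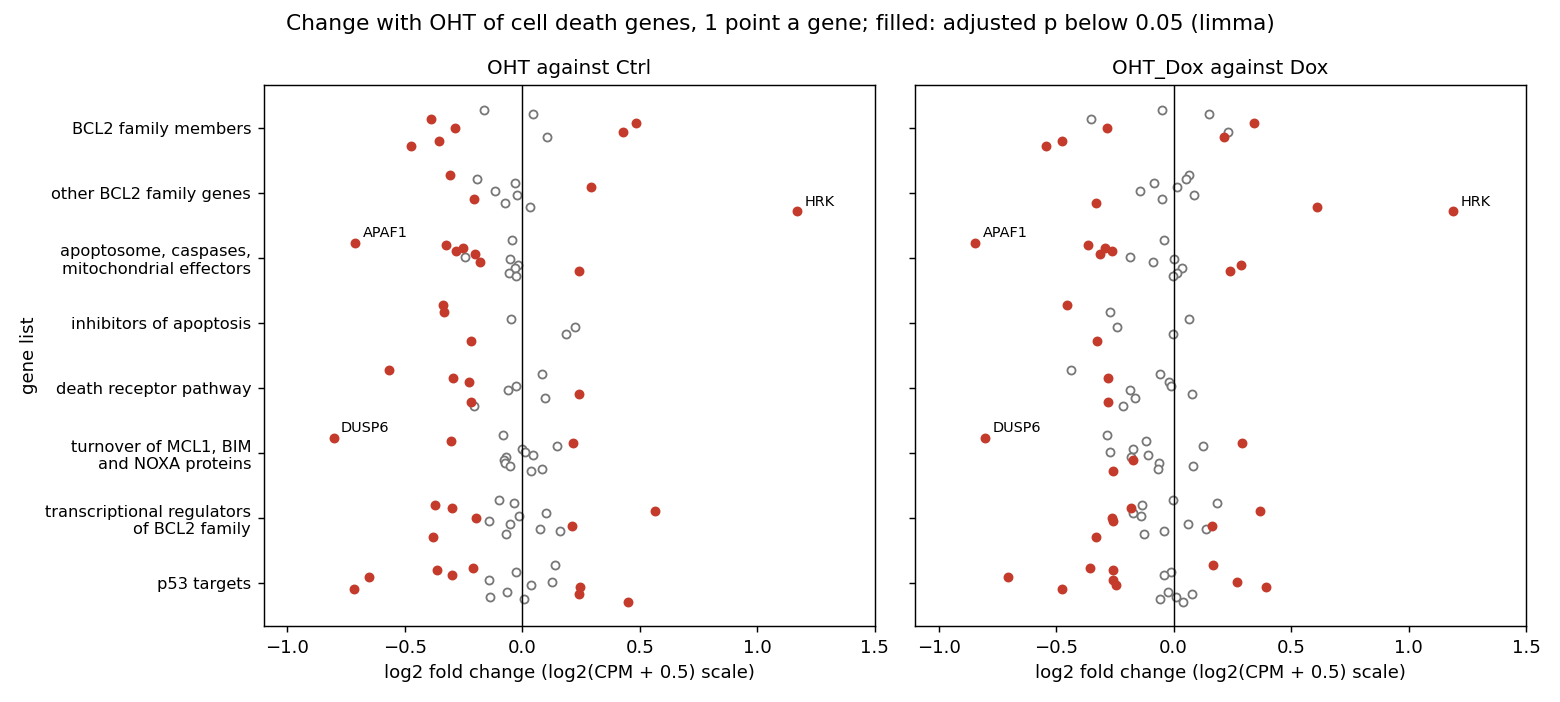
Log2 fold change with OHT of each tested gene (points), by gene list, without (left) and with (right) the hairpin induced, filled red where limma's adjusted p was below 0.05. HRK lies near 1.2 in both panels and DUSP6 and APAF1 between -0.7 and -0.85, while most other genes lie within 0.5 of 0. Among the p53 targets, unlabelled, SESN2 lies at -0.72 (left) and GDF15 at -0.65 (left) and -0.70 (right).

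Of 14 genes that act on the stability of MCL1, BIM and NOXA proteins, 1 rose and 2 fell with OHT alone, and 1 rose and 3 fell with the hairpin induced (medians -0.03 and -0.14). With OHT alone 0 rose without Ctrl replicate 1, Ctrl replicate 3 or OHT replicate 3. Under the hairpin 1 to 5 fell, with 1 falling without any 1 Dox library or without OHT_Dox replicate 3 and 5 without Ctrl replicate 1 or OHT_Dox replicate 2. DUSP6, a phosphatase that silences ERK, the kinase that marks BIM for breakdown, had 23.8, 22.0 and 24.1 CPM in Ctrl and 14.7, 13.2 and 11.7 CPM in OHT. It fell by 0.80 ± 0.10 in both settings (adjusted p = 6.81e-06 and 6.72e-06). DYNLL1, the dynein light chain that tethers BIM, fell by 0.30 ± 0.07, and DYNLL2, which tethers BMF, rose by 0.22 ± 0.06 and 0.29 ± 0.06. The first of these DYNLL2 calls was lost in 5 alternatives. USP9X, which removes ubiquitin from MCL1, fell by 0.26 ± 0.08 with the hairpin induced, lost in 8 of 23 alternatives.

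Of 15 transcriptional regulators of BCL2 family genes, 2 rose and 4 fell in each setting (medians -0.05 and -0.12). Without OHT replicate 3, 2 rose and 2 fell with OHT alone, and under the hairpin 0 rose without Dox replicate 1, Dox replicate 2 or OHT_Dox replicate 3 and 1 rose without Dox replicate 3, OHT_Dox replicate 1 or OHT_Dox replicate 2. FOXO1, which can activate BCL2L11 and BBC3, rose by 0.57 ± 0.12 with OHT alone. Under the hairpin it read 4.17, 4.65 and 5.08 CPM without OHT and 5.16, 6.44 and 6.86 CPM with it. TP73, the p53 relative, fell by 0.38 ± 0.07 and 0.33 ± 0.07, and E2F1, a cell cycle factor that can activate BH3-only genes, fell by 0.30 ± 0.06. JUN fell by 0.26 ± 0.06 and MDM2, the ubiquitin ligase for p53, by 0.26 ± 0.06 with the hairpin induced, the latter lost in 1 alternative. Of 16 targets of p53 other than the members, 3 rose and 5 fell with OHT alone, and 3 rose and 6 fell with the hairpin induced (medians -0.05 and -0.03). Without OHT replicate 3 the first counts were 2 and 3, and without both Dox replicate 1 and OHT_Dox replicate 3 the second were 1 and 3. SESN2, a stress gene, fell by 0.72 ± 0.11, GDF15, a secreted stress signal, fell by 0.65 ± 0.10 and 0.70 ± 0.10, and ZMAT3, an RNA-binding protein, rose by 0.45 ± 0.09. CDKN1A, which encodes the cell cycle inhibitor p21, fell by 0.35 ± 0.07 and SESN1 rose by 0.39 ± 0.09 with the hairpin induced.

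For Dox against Ctrl, where 5.68% of all genes were called higher and 2.61% lower, the calls in these lists were 1 inhibitor of apoptosis, 1 gene of protein turnover, 2 transcriptional regulators and 2 targets of p53, and none in the other 3 lists. BIRC6 rose by 0.50 ± 0.13, USP9X by 0.30 ± 0.08, FOXO3 by 0.34 ± 0.09, STAT3 by 0.24 ± 0.07 and ZMAT3 by 0.31 ± 0.09, and PHLDA3 fell by 0.26 ± 0.07. Each lost its call in 5 to 14 of 23 alternatives. The count was 0 in every list without Ctrl replicate 2, Ctrl replicate 3, Dox replicate 2 or Dox replicate 3, and 4 genes of protein turnover were called higher without Ctrl replicate 1. For OHT_Dox against OHT, BNIP3 was higher by 0.33 ± 0.07 and JUN was lower (-0.25 ± 0.06), calls that were lost in 4 and 7 alternatives, and no other listed gene passed.

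The 3 members with the largest F over the 4 groups were MCL1 (41.3), PMAIP1 (40.6) and BCL2L1 (15.7). Among 11687 genes with a symbol and a mean of at least 5 CPM, those whose log2 levels followed MCL1 most closely over the 12 libraries were CPOX (Pearson r = 0.991), an enzyme of haem synthesis, ERRFI1 (0.989), an inhibitor of the EGF receptor, and MASTL (0.988), a mitotic kinase. For PMAIP1 they were PLRG1 (0.986) and PPIL4 (0.984), both spliceosome-associated, and CDC20B (0.985). For BCL2L1 they were KIFC1 (0.981), a mitotic motor, UCK1 (0.965), a uridine kinase, and ASF1B (0.955), a histone chaperone. MCL1 and PMAIP1 followed each other at 0.968, while BCL2 ran against BCL2L1 at -0.901. The libraries fall into those with and without OHT, so these values mostly restate that shared difference, and they are given as a description.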

How the data were processed

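Poly(A) RNA from SHEP cells was sequenced in 12 libraries, made with a kit that keeps strand, per the labels' protocols. The values deposited by the authors are CPM per gene. Per the submitters' processing notes, featureCounts, STAR, Bowtie, Bowtie2, DRAGEN and FastQC were used, with mm10 and hg19 as builds; which tool made this table is not said. Versions, annotation and the strand setting are not given in the sources used here. Every deposited CPM value was a whole multiple of 1 read within 0.01 reads (100.0% of values), so reads were recovered; edgeR on them called 4038 genes for OHT against Ctrl and limma on the deposited values 3998.

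Genes with at least 0.5 CPM in at least 3 libraries (18674) were fitted as log2(CPM + 0.5) with limma 3.58.1 (R 4.3.3): 1 mean per group, 1 shared spread, a mean trend, two-sided tests and Benjamini-Hochberg adjustment over all genes, called at adjusted p below 0.05. A fold change on this scale understates the change of low genes. edgeR 4.0.16 (quasi-likelihood) and DESeq2 1.42.0 on the recovered reads were alternatives; so were other pseudocounts, filters, scalings, a replicate block, and leaving out each library. Exon lengths and GC content came from GENCODE 29. The fit was tested on simulated data.

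The members and lists were chosen with earlier results of these data known. From each list, up to 3 called genes with the smallest p per comparison are named, plus the 3 genes most like each of the 3 members with the largest F. A few named genes that this rule and the marker lists would give are not reported here.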

Additional observations from a re-analysis of the deposited data

How the results depend on the processing

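Over all alternatives, 5 or 6 members were called for OHT against Ctrl (6 as reported), 4 to 6 for OHT_Dox against Dox (5 as reported) and 0 in the other comparisons. The direction of MCL1, PMAIP1, BCL2L1 and BCL2 with OHT held in both settings under each alternative run, and of 1026 recomputed member values 9 lost and 9 gained a call. Of 48 named calls of other genes, 30 held under every alternative run and 18 were lost under at least 1, with no change of direction. The estimate of the interaction of BAX turned from 0.11 to -0.000498 with the length and GC trend removed, neither called; the cause was not tested.

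Counts over all genes were less stable. For Dox against Ctrl, 1548 genes were called, 992 with no filter, 2525 with the replicate block, and 197 to 3180 with 1 library left out, lowest without Dox replicate 2 and highest without Ctrl replicate 1. The split was 1061 higher and 487 lower, against 519 and 771 after TMM rescaling; edgeR gave 515 and 804 genes, and DESeq2 923 and 1171. No member was called in any of these. OHT_Dox against OHT gave 392 genes, 680 with DESeq2, 631 with the replicate block and 196 to 503 with 1 library left out, lowest without OHT replicate 1. The interaction gave 0 genes, 1 with DESeq2 and up to 1041 with 1 library left out (Ctrl replicate 1). For OHT_Dox against Dox the split was 2153 higher and 2709 lower, against 2553 and 2220 after TMM rescaling. There edgeR gave 2541 and 2194 genes, and DESeq2 2624 and 2453. The cause was not tested.

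The labels do not say what a replicate number marks, and the numbers were not taken as a pairing, which asked for every same-numbered pair to correlate above 0.1. Correlations ran from -0.17 to 0.33, with 7 of 18 above 0.1; 9 of 12 libraries were closest to one of their own number, a hint from the data, not the design. The block changed 1 member's call, BAX for OHT_Dox against Dox. Dox replicate 1 and OHT_Dox replicate 3 had the most extreme GC trend, and leaving both out, an alternative added after seeing the data, gave 2980 genes for OHT_Dox against Dox (4862 as reported, up to 5132 with 1 library left out) and 5 members, as reported. BBC3 and BMF, with the fewest reads, were the least precisely measured members.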
